A study of Taeniopygia guttata with 10 samples.

Results

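The regions described here are the 6 zebra finch macrochromosomes 1, 1A, 2, 3, 4 and 5 of the build taeGut3.2.4, followed along their length in windows of 1 Mb. Members were chosen by chromosome name only and comprised 410347 of the 719917 Methylation Peaks and 388374 of the 1074648 CpGs covered by reduced representation bisulfite sequencing (RRBS). Counted from base 1, they filled 596 windows over 593385537 bp, of which 74 windows lay on chromosome 1A. Where the last CpG or peak of a chromosome lay was taken as its end, because no assembly lengths were used. Distances are given to the nearer end, "ends" are the first and last 2 Mb of each chromosome, and the "interior" lies over 20 Mb from both ends.

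MethylCap-seq, in which DNA fragments are captured by a domain that binds methylated CpGs, was performed on G266 and ZFTMA cells treated with 1 µM AZA (5-aza-2'-deoxycytidine), on the same lines treated with DMSO, and on untreated ZFTMA cells. Treatments lasted 72 h with a new dose every 24 h. G266 is a diploid male and ZFTMA a tetraploid female line, each from 1 spontaneous, non-neuronal tumor, so neither stands for a normal tissue. RRBS was performed on untreated ZFTMA only. Each line gave 1 library per treatment, and the 2 lines served as the replicates. MethylCap-seq counts on the macrochromosomal peaks summed to 1337556 in G266 AZA and 1367501 in ZFTMA AZA, against 5368432 in G266 DMSO and 3872115 in ZFTMA DMSO, and to 4483200 in untreated ZFTMA. RRBS covered the macrochromosomal CpGs with a median of 98 reads and at least 10 reads each. With 1 RRBS library and 1 peak set there is no replicate error for degrees and peak densities, and differences in them carry no test.

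Bird genomes combine a few large macrochromosomes with many small, gene-rich and GC-rich microchromosomes. Along the macrochromosomes of the zebra finch, meiotic recombination is concentrated toward the ends and is scarce in the long interiors. Chromosomes 1 and 1A together correspond to chromosome 1 of the chicken. In vertebrates most CpGs are methylated, whereas stretches of dense CpGs, the CpG islands found at many promoters, usually are not. RRBS reads methylation at single CpGs and favours CpG-dense fragments, while MethylCap-seq counts captured fragments and thus reads methylation together with CpG density. AZA traps DNA methyltransferases, so that methylation is lost as DNA replicates.

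The ends were more methylated than the interior in RRBS. The mean methylation degree of CpGs, the percentage of reads that were methylated, was 53.8% at 0 to 2 Mb, 50.9% at 2 to 5 Mb, 48.7% at 5 to 10 Mb, 42.8% at 10 to 20 Mb and 43.3% over 20 Mb from the nearer end. Pooled over the 6 chromosomes, the degree thus was lower with every step inward as far as 20 Mb and level beyond. Of the single chromosomes, chromosome 2 alone fell at each of these steps. Chromosome 1 had 48.6%, 38.1% and 47.8% at 0 to 2, 2 to 5 and 5 to 10 Mb. Chromosome 5 had 50.5% at 0 to 2 Mb and 57.7% at 2 to 5 Mb. Ends exceeded the interior by 10.6 percentage points, over 24954 CpGs at ends and 229157 in the interior. Pooled over reads, 47.6% of the reads at ends were methylated (95% Wilson interval 47.5 to 47.6%), against 37.7% in the interior (37.7 to 37.7%). These intervals cover counting error only and take the reads as independent, though many reads share a CpG.

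The gradient is described here by the shares that unmethylated and highly methylated CpGs took of the covered CpGs, and not by their numbers per Mb. CpGs with a degree below 5% made up 24.3% of CpGs at ends (95% Wilson interval 23.7 to 24.8%), against 33.1% in the interior (32.9 to 33.3%). CpGs with a degree of at least 80% made up 39.7% at ends (39.1 to 40.3%), against 28.1% in the interior (28.0 to 28.3%). CpGs between these limits made up 36.0% at ends, against 38.8% in the interior. The intervals cover counting error only and take neighbouring CpGs as independent. Unmethylated CpGs therefore took a smaller share, and highly methylated CpGs a larger share, of the covered CpGs at ends.

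Covered CpGs also lay differently at the ends. RRBS covered 1040 CpGs per Mb at ends, against 648 per Mb in the interior, and the 3 classes between them held 629, 710 and 575 per Mb. The median CpG at an end had 10 covered CpGs within 200 bp, itself included, against 16 in the interior. Sparse CpGs had high degrees at ends and in the interior alike. With the same mix of 5 strata of local CpG number in both groups, the excess of the ends was 4.50 percentage points. What remained of the excess lay mainly at intermediate densities. CpGs with 6 to 11 covered CpGs within 200 bp had a degree of 62.8% at ends, against 55.4% in the interior. CpGs with 12 to 19 covered CpGs within 200 bp had a degree of 51.9% at ends, against 40.5% in the interior, and those with 20 to 27 had 38.01% at ends, against 29.7% in the interior. At 28 and more, degrees were 23.0% at ends, against 21.6% in the interior, and at 1 to 5 the order was the opposite, with 66.2% at ends, against 71.8% in the interior.

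**Figure D1:**
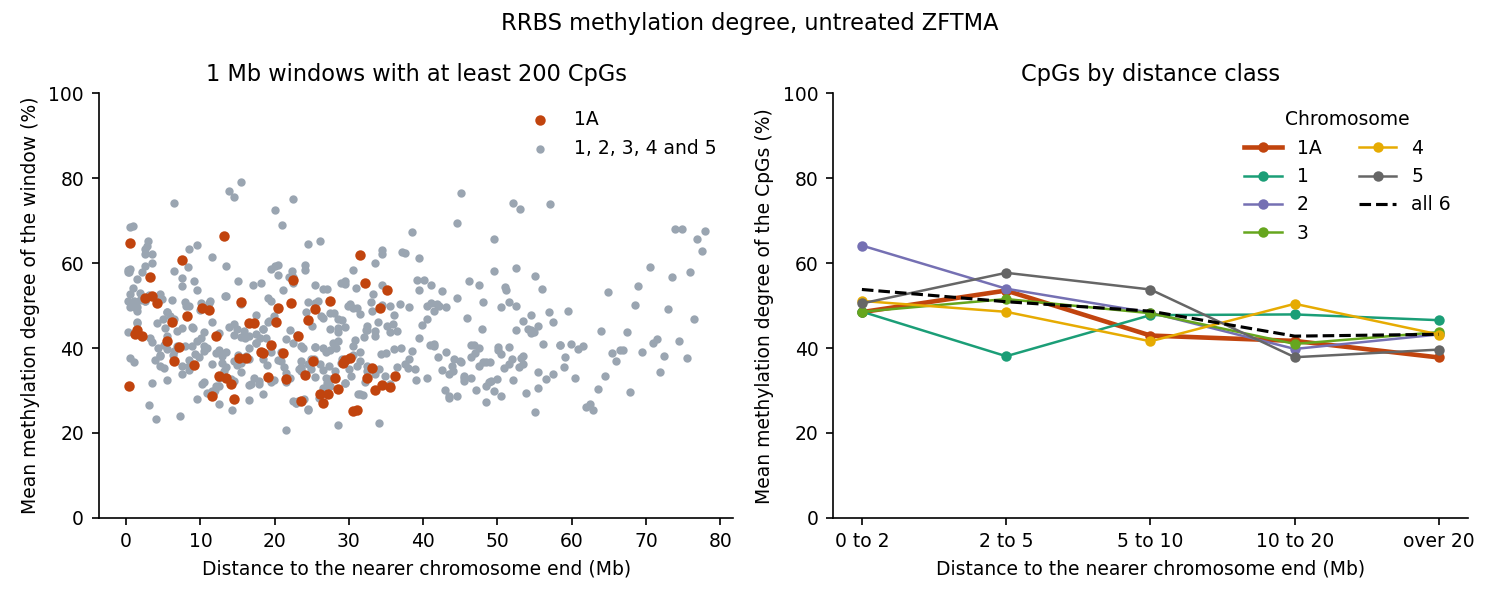
RRBS methylation degree in untreated ZFTMA against the distance to the nearer chromosome end in Mb: left, 1 point for each 1 Mb window with at least 200 covered CpGs (1A in red, the other 5 chromosomes in grey); right, mean over CpGs in 5 distance classes, 1 line for each chromosome and a dashed line for all 6. The dashed line goes down from 53.8% in the outermost class to 43.3% in the innermost, and windows of all distances scatter widely.

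The gradient was not shared by every end. Of the 12 ends, 9 had a higher degree than the interior of their own chromosome. The largest excesses were 21.8 percentage points at the first end of chromosome 2 (that of base 1), 21.7 at the first end of 1A and 19.6 at the last end of chromosome 2. The 3 exceptions were the last end of chromosome 1, with 40.9% at the end against 46.6% in the interior, the last end of 1A, with 33.4% against 37.8%, and the first end of chromosome 3, with 40.7% against 43.8%. Chromosome 2 weighed most: without it the excess of the ends was 6.32 percentage points.

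Genes at the ends illustrate both kinds. Gene positions and names were those of genes the study lists for a demethylated promoter or a changed expression, so they are no random sample, and degrees are means over covered CpGs from 2 kb before to 2 kb after each gene. The first window of chromosome 2 held 3210 CpGs with a mean degree of 68.5%. In it, SETD2 (bases 915431 to 950540), which methylates lysine 36 of histone H3 in mammals, had 294 covered CpGs at 91.7%. AGAP3 (bases 159261 to 230767), a GTPase-activating protein for Arf proteins in mammals, had 307 at 78.9%. FASTK (bases 272649 to 282644), a Fas-activated kinase in mammals, had 193 at 54.2%. All 3 lay above the chromosome's interior mean of 43.2%.

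The first window of 1A had a degree of 64.7% over 1378 CpGs. UBE2H, a ubiquitin-conjugating enzyme, had only 9 covered CpGs, at 96.4%. CALML3, a calmodulin-like protein, had 44 at 86.8%, and STRIP2 had 88 at 58.8%. On chromosome 1 the first window, at 58.6%, held SIM2, a transcription factor of neural development, with 128 CpGs at 65.3%. The first window of chromosome 5, at 52.8%, held SLC17A6, a vesicular glutamate transporter, with 91 CpGs at 71.7%. In the first window of chromosome 4, at 49.6%, the transcriptional regulator PRDM8 had 191 CpGs at 44.7%.

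The first window of chromosome 3 was among the exceptions, with 37.7% over 1263 CpGs. Its ARHGEF33 (bases 140991 to 269320) had 372 CpGs at 21.4%, and 66.1% of them were below 5%. Its SLC8A1, a sodium-calcium exchanger, had 129 CpGs at 67.3%. The 2 genes, within 1 Mb of each other, thus stood on opposite sides of the chromosome's mean of 44.1%. In the last window of 1A, at 31.0% over 591 CpGs, MANSC1 had 38 CpGs at 22.0%.

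Windows varied more among themselves than the distance classes did. Among the 542 windows with at least 200 covered CpGs, degrees ran from 20.7% to 79.2% with a median of 41.6% and an SD of 10.95. The median window had 51.1% at ends, against 40.4% in the interior. Windows of very high and of very low degree were both found inside the chromosomes. The highest were bases 15000001 to 16000000 of chromosome 4 with 79.2% over 262 CpGs, bases 48000001 to 49000000 of chromosome 5 with 77.1% over 212 CpGs and bases 73000001 to 74000000 of chromosome 1 with 76.5% over 276 CpGs. Each held few covered CpGs beside the median window, which held 563. The highest window of chromosome 2 lay at an end instead, at bases 155000001 to 156000000, with 68.7% over 1566 CpGs.

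The lowest window of each chromosome lay between 20.7% and 25.3%, and those of chromosomes 2, 3 and 4 each held a named gene with a degree near or below 10%. Bases 21000001 to 22000000 of chromosome 5 were lowest of all, at 20.7% over 839 CpGs. Bases 24000001 to 25000000 of chromosome 2 had 25.3%, and held FZD1, a receptor for Wnt ligands, with 130 CpGs at 10.3%. Beside it, CDK14, a cyclin-dependent kinase, had 84 CpGs at 35.7%, and the tight junction gene CLDN12 had 14 at 57.1%. Bases 57000001 to 58000000 of chromosome 3 had 25.04% and held NUP43, a nuclear pore protein, with 76 CpGs at 7.75%, but also PNLDC1 with 50 at 45.6% and FNDC1 with 13 at 90.8%. Bases 62000001 to 63000000 of chromosome 4 had 24.0% and held HAUS3, of the augmin complex of the spindle, with 41 CpGs at 8.53%. In the lowest window of 1A, at 25.1%, the amino acid transporter gene SLC38A1 had 6 CpGs at 74.7%. A low window mean thus did not extend to all of its named genes.

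Methylation Peaks, the regions that the study defined from the DMSO samples of both lines together, showed a different profile. There were 593 peaks per Mb at ends, against 736 in the interior, with 563, 586 and 672 in the classes between. The density at ends was 0.805 times that of the interior. Of the 12 ends, 11 had fewer peaks per Mb than the interior of their chromosome, and the last end of 1A was the exception. Peaks at ends were wider, however, with a median width of 160 bp, against 105 bp in the interior. Peaks of a single CpG were 22.5% of those at ends, against 30.3% in the interior. The share of bases inside peaks was therefore in the other order, with 17.2% at ends against 14.9% in the interior, or 1.16 times as much.

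**Figure D2:**
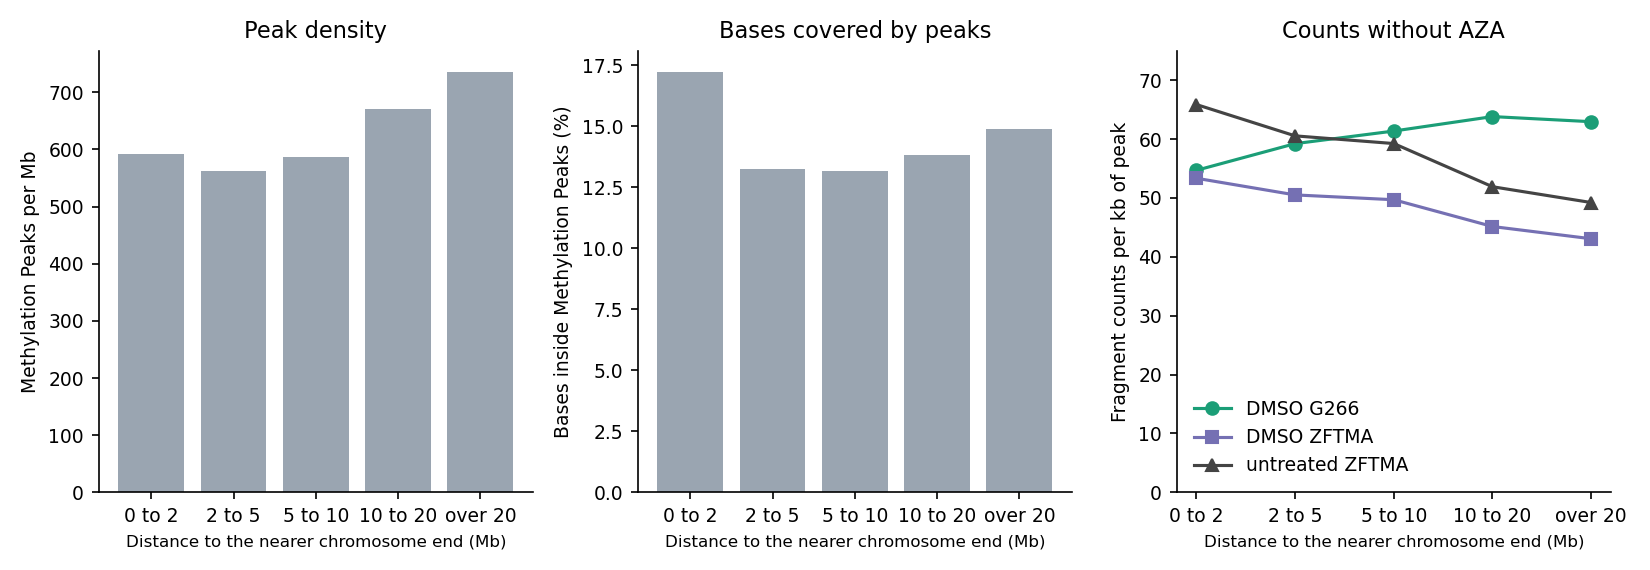
Methylation Peaks and MethylCap-seq counts by distance to the nearer chromosome end in Mb, over all 6 macrochromosomes: peaks per Mb, percentage of bases inside peaks, and fragment counts per kb of peak in the 3 libraries without AZA (1 library each, no error bars). Ends had fewer peaks, at 593 per Mb, but more bases in peaks, at 17.2%, and the counts of the 2 lines ran in opposite directions.

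The counts without AZA depended on the line. Per kb of peak, DMSO G266 had 54.7 counts at ends, against 63.0 in the interior. DMSO ZFTMA had 53.3 at ends, against 43.1 in the interior, and untreated ZFTMA had 65.9 at ends, against 49.2 in the interior. The lines thus ran in opposite directions per kb of peak, and both ZFTMA libraries ran the same way. These values were not scaled to library size, which leaves the comparison within a library as it is.

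Scaled to the total on all peaks of the genome, given as counts per Mb of chromosome and 1e6 counts, ends had 910 counts in DMSO G266, against 906 in the interior. DMSO ZFTMA had 1072 at ends, against 749 in the interior, and untreated ZFTMA had 1103 at ends, against 713 in the interior. On the log2 scale the excess of the ends was 0.01 in DMSO G266, 0.52 in DMSO ZFTMA and 0.63 in untreated ZFTMA. With ends of 5 Mb it was -0.15 in DMSO G266 and 0.26 in DMSO ZFTMA. Counts were higher than in the interior of the same chromosome at 4 of 12 ends in DMSO G266, at 10 in DMSO ZFTMA and at 10 in untreated ZFTMA. The mean over the 2 DMSO libraries, 0.26, was smaller than the SD between them, 0.36. An excess common to both lines was therefore not shown, and with 2 lines the smallest two-sided p of an exact permutation test is 0.5. The ratio of ZFTMA to G266 in DMSO, on the log2 scale, was 0.24 at ends, 0.04, -0.03 and -0.23 in the classes between, and -0.28 in the interior. Ploidy, sex and tumor of origin differ between the lines and cannot be told apart here.

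Counts per Mb at the first end of chromosome 2 exceeded those of the chromosome's interior, on the log2 scale, by 0.60 in DMSO G266, 1.495 in DMSO ZFTMA and 1.70 in untreated ZFTMA. Its first window had 55.5 counts per kb of peak in DMSO G266, 75.3 in DMSO ZFTMA and 99.8 in untreated ZFTMA. Per kb of peak it thus was high in both ZFTMA libraries, whereas in DMSO G266 it lay below the 64.2 of the chromosome's interior. At AGAP3, 46 peaks held 2987 counts in DMSO G266, 4149 in DMSO ZFTMA and 5585 in untreated ZFTMA. The relation between RRBS degree and counts was weak over windows. Across the 542 windows with at least 200 CpGs, Spearman's correlation of RRBS degree with untreated ZFTMA counts per kb of peak was 0.25. It was -0.09 between RRBS degree and peaks per Mb. Neighbouring windows are not independent, and both assays read the same line, so no p is given.

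AZA lowered the MethylCap-seq counts of every macrochromosomal window, when libraries were scaled by their reads outside Methylation Peaks as in the study. By the quasi-likelihood test of edgeR, blocked by line, 596 of 596 windows were lower at a false discovery rate of 0.1, beside 99.8% of the 1213 windows of all chromosomes. The log2 fold change had a median of -2.62 and ran from -2.98 to -1.96. Of single peaks, 213650 of 410347 (52.1%) were lower and 4 were higher, beside 54.6% lower and 0.00167% higher of all 719917 peaks. The study, also with edgeR and a paired design at this false discovery rate, reported a far smaller share of all peaks as lower. What made this difference was not tested. The counts of windows and peaks given here rest on the scaling. With all non-duplicate reads as library size, 506 windows (84.9%) were lower, beside 84.4% of all windows, and the median log2 fold change was -0.63. With edgeR's TMM scaling, which sets the typical window to no change, 1 window (0.168%) was lower, beside 3.13% of all windows. Higher were 34 (5.70%), beside 4.2% of all windows. With the counts on peaks as library size 0 windows were lower, beside 0.495% of all windows, and 27 were higher. In that fit 87 windows had an unadjusted p under 0.05 in edgeR. Without the G266 AZA library and without the block, the lone AZA library is assumed to vary like the DMSO libraries. Calls of that fit rest on this assumption. The median log2 fold change over windows was -2.44, so the size of the change was nearly as in the full fit. With TMM 56 peaks (0.0136%) were lower, beside 0.0206% of all peaks. The peaks had been called on the DMSO libraries, and the part of this choice in the loss was not tested.

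Where along the chromosome the counts were lost does not depend on the scaling, which cancels between ends and interior. In AZA against DMSO, the log2 ratio in ZFTMA was -3.13 at ends, -2.98, -2.91 and -2.75 in the classes between, and -2.72 in the interior. In G266 it was -2.56 at ends, -2.54, -2.51 and -2.49 in the classes between, and -2.51 in the interior. Ends minus interior was thus -0.41 in ZFTMA and -0.05 in G266, with a mean of -0.23 and an SD between lines of 0.26. The ratio was more negative than in the interior of the same chromosome at all 12 ends in ZFTMA and at 9 of 12 in G266. By end, the difference in ZFTMA ran from -0.60 to -0.01, the latter at the first end of chromosome 5. In G266 it ran from -0.18 to 0.06. A greater relative loss at ends was therefore large in ZFTMA and small in G266, and its mean did not exceed the spread between the lines. Per kb of peak, before scaling, ZFTMA AZA had 14.7 counts at ends, against 15.9 in the interior. ZFTMA DMSO had 53.3 at ends, against 43.1 in the interior. In G266 AZA there were 13.2 at ends, against 15.7 in the interior, and in G266 DMSO 54.7, against 63.0. The ends of ZFTMA thus stood well above the interior with DMSO and slightly below it with AZA. Over peaks with at least 10 DMSO counts, the difference was -0.31 in ZFTMA and 0.03 in G266, with a mean of -0.14.

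**Figure D3:**
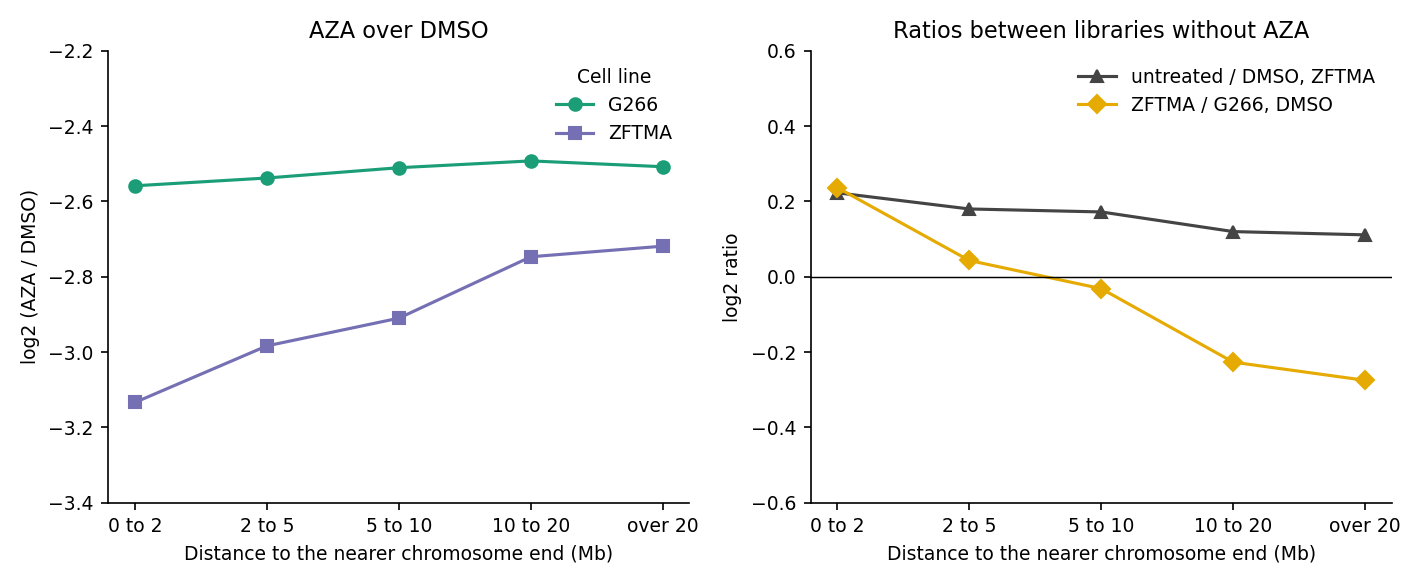
Left, log2 ratio of AZA to DMSO counts on Methylation Peaks, scaled by reads outside peaks, by distance to the nearer chromosome end in Mb in G266 and ZFTMA (1 library per line and treatment, no error bars, axis not starting at 0). Right, log2 ratios between libraries without AZA. ZFTMA lost relatively more at ends, at -3.13 against -2.72 in the interior, while G266 stayed between -2.56 and -2.49.

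Other measures moved with this gradient, and their part in it was not tested. Untreated over DMSO ZFTMA, a ratio of libraries without AZA, was 0.22 at ends, against 0.11 in the interior on the log2 scale, a difference of 0.11, and was higher at 11 of 12 ends. Across the 596 windows, the ZFTMA ratio of AZA to DMSO had a Spearman's correlation of -0.77 with the untreated ZFTMA counts per kb of peak, and the G266 ratio one of -0.26. The ratios of the 2 lines had one of 0.68. All windows of a library share its depth, and the untreated library entered neither ratio. Windows of many captured fragments thus lost relatively more in ZFTMA. With the same mix of untreated counts per peak at ends and in the interior, a comparison chosen after seeing the data, the mean difference of both lines was -0.11. By line it was -0.20 in ZFTMA and -0.03 in G266, and the mix was set by counts of ZFTMA only.

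**Figure D4:**
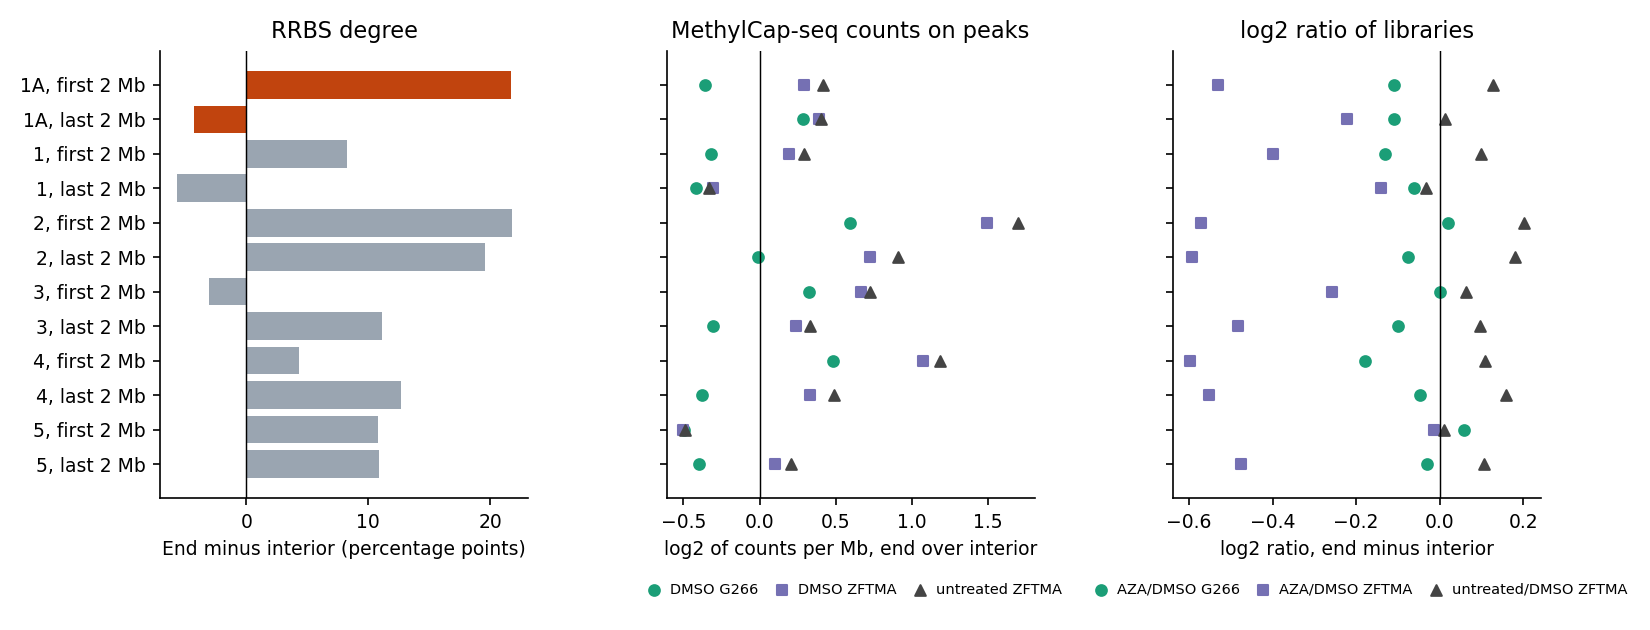
The 12 chromosome ends (first or last 2 Mb, by rows, 1A at the top and in red in the left panel) against the interior of the same chromosome: RRBS degree in percentage points, log2 of MethylCap-seq counts per Mb in DMSO G266, DMSO ZFTMA and untreated ZFTMA, and log2 ratios of AZA to DMSO in each line and of untreated to DMSO in ZFTMA. The RRBS degree is above the interior at 9 ends, and the ZFTMA ratio of AZA to DMSO is below it at all 12.

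Of the named windows, the 5 with the most negative fold changes held many CpGs covered by RRBS, between 745 and 2462, against 563 in the median window. Bases 50000001 to 51000000 of 1A had 13.0 counts per kb of peak in G266 AZA and 15.9 in ZFTMA AZA, against 58.4 in G266 DMSO and 64.1 in ZFTMA DMSO, before scaling. Its log2 fold change was -2.98 (SE 0.72). It held 2462 covered CpGs and 10 of the listed genes. Among them MAFF, a small Maf transcription factor, had 31 counts on its 5 peaks in G266 AZA and 54 in ZFTMA AZA, against 153 in G266 DMSO and 255 in ZFTMA DMSO. MGAT3, a glycosyltransferase, had a degree of 92.5% over 54 CpGs, while ANKRD54 had 8.80% over 69. The most negative windows also included the last of chromosome 2, at -2.96 (SE 0.17), with the cell polarity gene SCRIB, which had 76 CpGs at 75.6%.

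The 5 windows with the least negative fold changes held few CpGs covered by RRBS and lay inside the chromosomes, as most windows do. Of all 596 windows, 120 had their middle at 10 to 20 Mb from an end and 354 over 20 Mb. They were bases 17000001 to 18000000 of 1A at -1.96 (SE 0.19), bases 51000001 to 52000000 of chromosome 4 at -1.99 (SE 0.20), bases 37000001 to 38000000 of chromosome 2 at -2.08 (SE 0.17), bases 30000001 to 31000000 of chromosome 4 at -2.09 (SE 0.18) and bases 38000001 to 39000000 of chromosome 2 at -2.11 (SE 0.19). The first of them had 24.8 counts per kb of peak in G266 AZA and 24.8 in ZFTMA AZA, against 74.3 in G266 DMSO and 36.1 in ZFTMA DMSO. They held between 108 and 188 covered CpGs with degrees from 54.0% to 71.2%. The genes named in them were CDH10, a cadherin, with 32 peaks that held 135 counts in G266 AZA and 156 in ZFTMA AZA, against 468 in G266 DMSO and 302 in ZFTMA DMSO, and FSTL5, a secreted protein related to follistatin. At FSTL5, 133 peaks held 429 counts in G266 AZA and 367 in ZFTMA AZA, against 1331 in G266 DMSO and 518 in ZFTMA DMSO.

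Under TMM scaling, a setting that reads each window against the typical one, the 34 windows called higher after AZA all had their middle at least 10.5 Mb from an end. Of the 34 windows, 7 lay at 10 to 20 Mb and 27 over 20 Mb, classes that held 120 and 354 of all 596 windows. They were 5.70% of the macrochromosomal windows, beside 4.2% of all windows, and 3.13% of all windows were called lower. Chromosome 1A held 10 of them among its 74 windows, chromosome 2 held 11 of 157, chromosome 4 held 9 of 70, chromosome 5 held 3 of 63 and chromosome 3 held 1 of 113, whereas chromosome 1 had none and held the 1 window called lower. The 34 windows had a median of 230 covered CpGs, against 563 over all macrochromosomal windows. They had a median of 40.8 counts per kb of peak in untreated ZFTMA, against 47.5 over all. In DMSO ZFTMA the median was 37.7, against 41.9 over all. DMSO G266 went the other way, with 71.5 in these windows, against 63.0 over all.

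Chromosome 1A had the lowest mean RRBS degree of the 6. It averaged 41.1% over 45365 CpGs, against 46.5%, 45.2%, 44.1%, 46.1% and 45.7% on chromosomes 1, 2, 3, 4 and 5 and 45.4% over those 5 pooled. The difference was -4.26 percentage points. Over reads, 36.0% were methylated on 1A (95% Wilson interval 36.0 to 36.0%), against 39.8% on the other 5 (39.8 to 39.9%). These intervals, too, cover counting error only and take the reads as independent. Leaving out any of the other 5 chromosomes kept the difference between -4.68 and -3.99. The macrochromosomes as a group averaged 44.9%, against 51.8% on the 26 other named chromosomes.

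The low mean of 1A went with a larger share of unmethylated and a smaller share of highly methylated CpGs among those covered. RRBS covered 616 CpGs per Mb on 1A, against 660 per Mb on the other 5. Of the CpGs of 1A, 36.5% had a degree below 5% (95% Wilson interval 36.1 to 37.0%), against 31.4% on the other 5 (31.3 to 31.6%). A degree of at least 80% was reached by 26.7% of the CpGs of 1A (26.3 to 27.1%), against 30.7% on the other 5 (30.5 to 30.8%). Here also the intervals cover counting error only and take neighbouring CpGs as independent. In bins of 10%, the lowest bin held 40.3% on 1A against 35.3% on the other 5, and the highest 20.6% on 1A against 23.8% on the other 5. No other bin differed by as much as 1 percentage point.

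**Figure D5:**
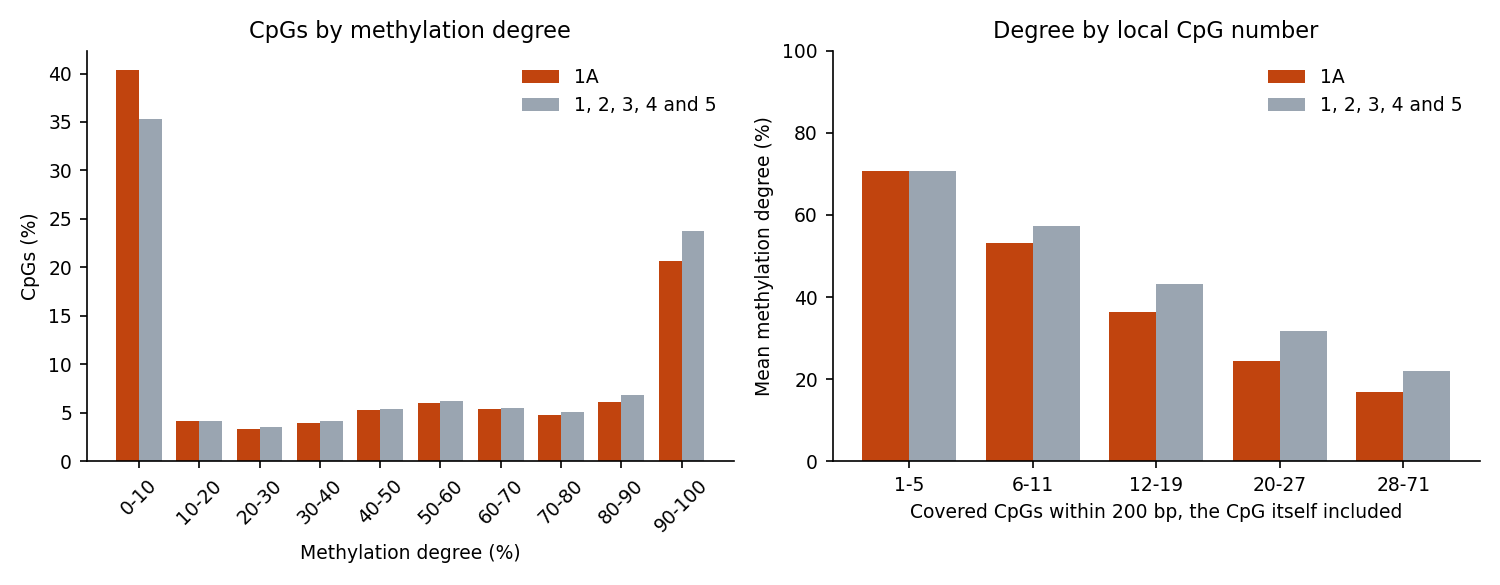
RRBS of untreated ZFTMA on chromosome 1A (red) and on chromosomes 1, 2, 3, 4 and 5 pooled (grey): left, percentage of CpGs in 10 bins of methylation degree; right, mean degree in 5 strata of the number of covered CpGs within 200 bp. The groups differ in the lowest and highest bins, at 40.3% against 35.3% and 20.6% against 23.8%, and have the same degree, 70.7%, only in the stratum of 1 to 5 CpGs.

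The lower degree of 1A was found among CpGs with 6 or more covered CpGs within 200 bp. Among CpGs with 1 to 5 covered CpGs within 200 bp, 1A had 70.7%, against 70.7% on the other 5. At 6 to 11 it had 53.3%, against 57.2% on the other 5, at 12 to 19 it had 36.3%, against 43.1%, at 20 to 27 it had 24.4%, against 31.7%, and at 28 to 71 it had 16.9%, against 22.0%. The strata themselves took similar shares of both: 18.8% of the CpGs of 1A were in the densest, against 19.6% on the other 5. With the same mix of strata the difference was -4.59 percentage points. The lower degree of 1A thus was found within the strata and not in their mix.

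The lower degree was also found at most distances from the ends. With the same mix of distance classes the difference was -4.75, and 1A lay below the other 5 in 4 of the 5 classes. In the interior it had 37.8%, against 43.9% on the other 5, at 10 to 20 Mb 41.7%, against 43.0%, at 5 to 10 Mb 43.0%, against 49.4%, and at the ends 48.5%, against 54.6%. At 2 to 5 Mb it had 53.6%, against 50.5% on the other 5.

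Coverage differed, and it moved with the degree. CpGs of 1A had a median of 113 reads, against 96 on the other 5. CpGs of many reads had low degrees both on 1A and on the other 5 pooled. The quintile of 175 and more reads held 27.1% of the CpGs of 1A, against 19.0% on the other 5. The median reads per CpG were higher on 1A in each stratum of local CpG number, from 78 on 1A against 71 on the other 5 in the sparsest to 144 against 118 in the densest. With the same mix of reads per CpG the difference was -2.48, and with the same mix of reads and local CpG number together it was -3.65, both chosen after seeing the data. Among CpGs with at least 100 reads it was -2.87. The part of coverage, or of the copy number of 1A in ZFTMA, in the low mean was not tested.

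The low mean was uneven along the chromosome. Of the 67 windows of 1A with at least 200 CpGs, 37 (55.2%) lay below the median window of the other 5, 41.9%, and the median window of 1A had 39.1%. With each window weighing the same, the difference was -2.66. Weighted by their CpGs, 42 windows shifted the mean of 1A downward, by shifts that summed to -6.85 percentage points, and the shifts of the 32 upward ones summed to 2.59. The 5 windows with the strongest downward shift accounted for -1.88, and without them the difference was -2.73. In stretches of 10 Mb, 1A had 52.3% in its first, 36.8%, 40.8%, 36.2% and 33.6% in the next 4, 41.3% and 47.6% after those, and 44.9% in the remainder up to base 73655504. The lowest stretch, bases 40000001 to 50000000, alone contributed -2.12 points, while the first 10 Mb contributed 0.75 and bases 60000001 to 70000000 contributed 0.32 in the other direction.

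Named genes in the windows of strongest downward shift had unmethylated CpGs. The windows were chosen for low degrees over many CpGs, so low degrees at their genes follow in part from the choice. Bases 47000001 to 48000000, with the largest such shift, -0.56 points, had 29.3% over 1588 CpGs and held 8 of the listed genes. Of these, H2AFJ, a variant of histone H2A, had 69 CpGs at 9.77%, and WBP11, a protein of RNA splicing, had 56 at 6.79%. Bases 59000001 to 60000000 had 31.6% and held ADCK2, a kinase-like protein of mitochondria, with 147 CpGs at 17.3%. Bases 49000001 to 50000000 had 33.8% and held L3MBTL2, a Polycomb-related protein, with 37 CpGs at 25.1%. Bases 33000001 to 34000000 had 30.1% and held the DNA helicase HELB with 39 CpGs at 29.3%. Bases 14000001 to 15000000 had 28.0% over 806 CpGs and held no listed gene.

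MethylCap-seq did not show 1A as low. It had 719 peaks per Mb, against 688 on the other 5, and 16.1% of its bases in peaks, against 14.3%. Per kb of peak it had 65.3 counts in DMSO G266, against 61.9 on the other 5, 46.6 in DMSO ZFTMA, against 44.7, and 53.9 in untreated ZFTMA, against 51.8. The difference went the same way in all 3 libraries. After AZA its log2 ratio to DMSO stood at -2.48 in G266, against -2.51 on the other 5, and -2.76 in ZFTMA, against -2.78.

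The RRBS degree of 1A was lower both inside and outside peaks. On 1A 51.4% of the covered CpGs lay in a Methylation Peak, against 54.4% on the other 5. Their mean degree was 61.9% on 1A, against 64.2% on the other 5, and CpGs outside peaks had 19.2% on 1A, against 23.1%. The higher counts per kb of peak on 1A thus stood beside a lower degree inside peaks, and the cause was not tested. At the ends, 62.3% of the covered CpGs lay in a peak, against 52.5% in the interior, with degrees in peaks of 69.2% at ends, against 62.5% in the interior. The threshold for calling peaks had been tuned by the study on these RRBS data, so the assays are not independent.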

How the data were processed

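The authors sheared DNA, captured methylated fragments, mapped read pairs with Bowtie2 2.1.0 (versions here are those of the submitters' processing notes) to taeGut3.2.4, removed duplicates and deposited raw counts of fragments per Methylation Peak. RRBS reads were mapped with Bismark 0.9.0, and the authors deposited for each CpG of at least 10 reads the read count and the methylation degree in percent. RNA-seq counts were deposited too and were not used, since the gene table holds no positions. No column of per-sample values was left out of the 2 tables used.

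Peaks were placed in 1 Mb windows by their middle. The test on counts per peak and per window, over all chromosomes, used glmQLFit and glmQLFTest of edgeR 4.0.16 under R 4.3.3 (Benjamini-Hochberg over all peaks or windows, rate 0.1), without a count filter, with library size the study's non-duplicate reads minus the counts on peaks. Both were taken to count read pairs, which is not stated. DESeq2 1.42.0 was an alternative. Standard errors are the log2 fold change over the square root of F, not the spread between lines. Within a line, ratios were taken on summed counts. Each line received both treatments and entered as a block. Deviations of same-line libraries from group means had a correlation of 0.84 over windows. Tested on simulated data, the window test recovered 100% of 200 windows changed 4-fold with 21 false calls among 1213, and the peak test 95.5% of 200 peaks with 11 false calls among 719917. The simulation set 1 dispersion for all windows and 1 for all peaks, and the same AZA effect in both lines. It changed 200 windows, whereas 99.8% of the windows were lower in these data, so its rates do not carry over to them.

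The windows named were the first and last of each chromosome, the lowest and highest in degree (at least 200 CpGs), the 5 with the most and the 5 with the least negative fold change (at least 1000 DMSO counts), and the 5 of 1A that lower its mean most. In each, up to 3 listed genes with the most covered CpGs were taken, not all of which are named. Members and lists were chosen with earlier results of these data known. The p-values rest on 2 lines with 1 library each and, like the standard errors, do not measure the spread between lines in a single window. Sequences and annotation of taeGut3.2.4 were not used here.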

Additional observations from a re-analysis of the deposited data

How the results depend on the processing

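Among the windows the AZA loss turned into a median log2 fold change of 0.06 with TMM and 0.11 with counts on peaks, scalings that set the overall change near 0. Peak density and the values of G266 also changed direction, as given below. The number of windows lower after AZA stayed at 596 with DESeq2, a filter of 10 counts and no replicate block, and was 506 with all non-duplicate reads as library size, where the median log2 fold change was -0.63 in place of -2.62. It was 1 with TMM and 0 with counts on peaks as library size. Leaving out 1 library each, without the block, gave 0 to 596 windows, with 0 without G266 AZA, where a lone library is assumed to vary like the others. The median log2 fold change stayed between -2.93 and -2.28 in these fits. Peaks lower numbered 213650, against 262096 with no replicate block, 177233 with DESeq2, 22467 with all non-duplicate reads, 56 with TMM, 41 with counts on peaks, and 80354 (without G266 AZA) to 218003 with 1 library left out.

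The RRBS excess of ends (10.6 points) was 9.85 with CpGs weighted by reads, 8.36 with equal windows, 4.50 with the same local CpG density, 9.56 with the same reads per CpG, 4.39 with both, 9.19 with ends of 5 Mb, and 11.9 without chromosome 1, 6.32 without 2 and 11.9 without 3. The difference of 1A (-4.26) was -2.87 from 100 reads, -2.66 with equal windows, -2.48 with the same reads, -3.65 with the same reads and density, -2.73 without the 5 windows and -4.75 with the same distances. Peak density at ends (0.805) was 0.781 with ends of 5 Mb, 0.823 with an interior over 10 Mb, 0.861 for peaks of at least 10 DMSO counts, 0.783 without 1A, 0.785 without chromosome 2, 0.824 without 3, and reversed, at 1.16, for bases covered, since peaks at ends were wider. The DMSO count excess (0.26) was 0.06 with ends of 5 Mb and 0.13 without chromosome 2, and 0.01 to 0.52 by line. In G266 alone it was -0.15 with ends of 5 Mb, -0.01 without 1A, -0.08 without chromosome 2 and -0.02 without 4. The AZA difference (-0.23) was -0.41 and -0.05 by line. For peaks of at least 10 DMSO counts it was -0.14, with -0.31 in ZFTMA and 0.03 in G266. The mixes of reads, distances and untreated counts were chosen after seeing the data. Causes of these shifts were not tested. Depth limits single peaks, whose median of summed counts at ends was 16.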
